A study of Drosophila melanogaster with 2 samples.

Results

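Of the Lim3 peaks that passed the deposited threshold in the first replicate, 305 overlapped no thresholded peak of the second replicate by even 1 bp, and these 305 peaks are described here. They were selected on measured values: a peak had to be in the thresholded list of replicate 1 (881 rows, of which 773 lay on X, 2L, 2R, 3L, 3R, 4 or Y) and outside every row of replicate 2's thresholded list (927 rows). They made up 39.5% of the 773 rows (95% Wilson interval 36.1 to 42.9%). The study holds 1 group, whole Drosophila melanogaster embryos of 8 to 24 h from the strain Lim3-GFP, sampled in 2 biological replicates. The flies carried Lim3 fused to eGFP, an anti-GFP antibody pulled down the sonicated chromatin, and the deposited peaks are on the dm6 assembly. Both replicates share this genotype and treatment, no untagged or input library was analysed here, and the labels name neither the landing site nor the promoter of the tagged gene. The embryo age is that of the source label, since a second age label gives a value no embryo can have. Peaks are not replicates of a condition, so each p-value and interval given here covers only the counting of peaks within this pair of libraries.

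Lim3 is a transcription factor of the LIM-homeodomain family. Its LIM domains are protein contact surfaces that bind cofactors and partner proteins, and its homeodomain binds short AT-rich DNA words. In the fly embryo it is known for the specification of motor neurons that grow to the ventral muscles, where it acts with the related protein Islet, and it is expressed in a limited number of cells. Replicate peak lists are commonly compared with the irreproducible discovery rate (IDR), which estimates how likely a peak's rank is to fail to recur between a pair of lists. Each replicate here has its own ranked list with its own IDR. The CG10467 peak, for example, had 1e-05 in replicate 1 and 0.867 in replicate 2. An IDR given for 1 replicate is therefore not read as agreement between the 2 replicates.

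The sequences under several of these summits are printed first, to show what kind of DNA was listed in replicate 1 alone. Each is 100 bases around the summit on the plus strand of the release 6 (dm6) genome, from RefSeq. Capitals mark 4 words on either strand: the homeodomain word TAATTA, the word ACAGTG, the word TTAAAA, and CTTATC. The last of these reads GATAAG on the other strand and is of the kind that GATA factors bind. Each window is named by the nearest protein-coding start, which was 12.9 kb away for CG13896 and 287 kb away for ARY. The first 2 lie under strong promoter peaks and the next 3 under peaks that ranked high in replicate 2. The ARY and CG9663 windows lie under strong peaks that no row of replicate 2's ranked list overlapped, though the CG9663 row is narrower than all the others. The last 2 hold CTTATC, the word with the smallest p-value in the comparison with the peaks listed in replicate 2 alone.
CG10467, chr3L:6094798-6094897: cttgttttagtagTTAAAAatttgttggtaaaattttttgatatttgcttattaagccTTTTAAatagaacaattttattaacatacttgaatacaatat
Tmf, chrX:6844149-6844248: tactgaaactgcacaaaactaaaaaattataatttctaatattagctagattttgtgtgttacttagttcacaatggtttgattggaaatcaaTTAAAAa
Dpp10, chr2L:6601316-6601415: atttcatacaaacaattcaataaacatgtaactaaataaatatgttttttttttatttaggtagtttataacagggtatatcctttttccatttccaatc
CG13896, chr3L:724732-724831: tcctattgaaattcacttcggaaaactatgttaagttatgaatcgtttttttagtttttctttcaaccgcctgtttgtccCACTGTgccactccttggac
be, chrX:15022361-15022460: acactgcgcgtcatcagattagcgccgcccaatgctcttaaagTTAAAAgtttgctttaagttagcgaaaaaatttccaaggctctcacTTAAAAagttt
ARY, chrY:989322-989421: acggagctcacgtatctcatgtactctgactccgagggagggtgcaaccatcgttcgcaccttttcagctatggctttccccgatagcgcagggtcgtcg
CG9663, chr2L:3302073-3302172: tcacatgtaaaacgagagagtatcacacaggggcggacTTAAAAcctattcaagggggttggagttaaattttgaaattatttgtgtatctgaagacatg
spi, chr2L:19575736-19575835: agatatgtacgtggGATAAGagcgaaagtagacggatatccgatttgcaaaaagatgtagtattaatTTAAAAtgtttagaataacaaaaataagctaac
sls, chr3L:2115791-2115890: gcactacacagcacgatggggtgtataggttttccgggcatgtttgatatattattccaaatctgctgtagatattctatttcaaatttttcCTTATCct

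The windows ranged from AT-rich promoter DNA to the GC-rich Y-linked window. The 200 bp around the summit held 27% G and C at CG10467, 25% at Tmf and 57.5% at ARY, and the genome file masks 96.5% of the ARY window as repeat. No TAATTA stood in any of the 9 printed windows.

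The member rule keeps out every peak of replicate 2's thresholded list, so a lower standing in replicate 2 follows from the rule, and the ranks there are given as a description. Of the 305, 268 (87.9%, Wilson interval 83.7 to 91.1%) overlapped a row of replicate 2's ranked list of 113860 rows, of which 0.814% were in its thresholded list, and 37 overlapped none. These rows reach to the end of a ranked list that holds very weak rows, so an overlap alone does not make a peak present in replicate 2. For the peaks listed in replicate 2 alone, 264 of 449 (58.8%) overlapped a row of replicate 1's ranked list. Ranks were counted by the authors' signal, and the 268 matched rows had a lowest rank of 297, a median of 2059.5 and a highest of 111832. Only 33 ranked at 927 or better, the length of replicate 2's thresholded list. The IDR deposited for replicate 2 ran from 0.0102 to 0.938 with a median of 0.193. It was 0.05 or less for 79 peaks and over 0.5 for 95, whereas the limit for listing is 0.01. The authors also deposited thresholded lists made from both libraries together, and 229 of the 305 (75.1%) were in the larger of these and 170 (55.7%) in the conservative one. Among the 468 replicate 1 peaks listed in both replicates, 467 were in each of these lists.

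**Figure D1:**
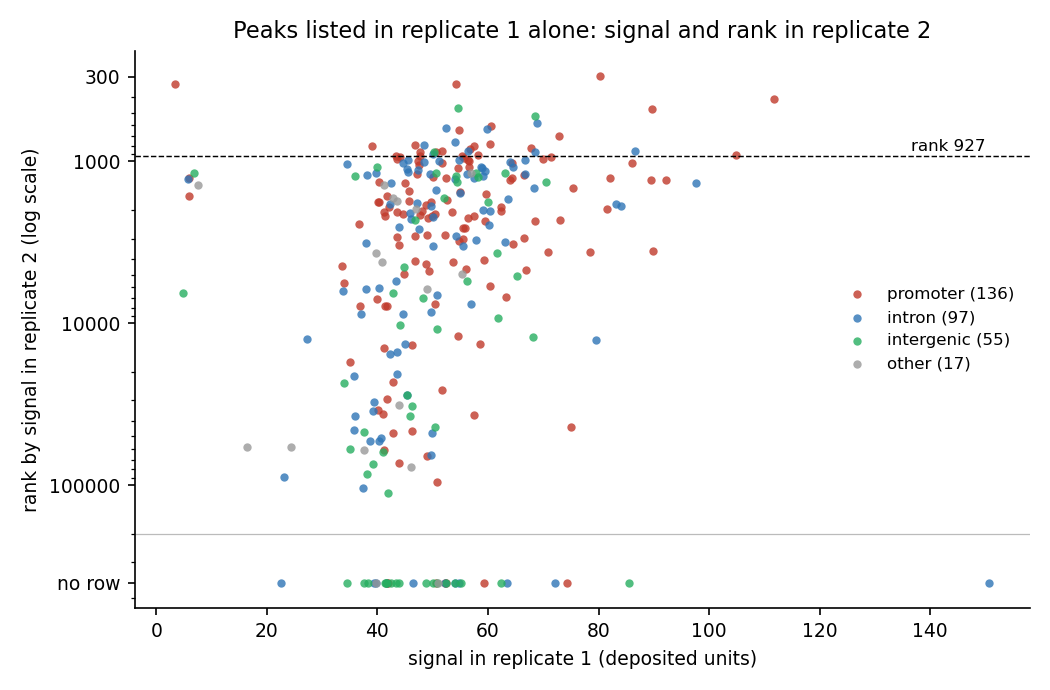
Each point is 1 of the 305 peaks, with its signal in replicate 1 (deposited units) on the horizontal axis and the rank by signal of the overlapping row in replicate 2 on the vertical axis (log scale, best rank at the top). Colours give the place of the summit, the dashed line marks rank 927, and the 37 peaks with no ranked row in replicate 2 are drawn on the lowest line, with the rl peak at the far right.

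In replicate 1 these peaks lay in the lower part of the list by signal. Their signal had a lowest value of 3.46, a median of 49.9 and a highest of 151, with 75% of them at 57.9 or less, while the whole list of 881 had a median of 62.3 and the peaks listed in both replicates had a median of 82.0 in the same library. Their rank by signal in replicate 1 had a median of 783. The highest possible score, 1000, was given to 193 of the 305 (63.3%) and to 443 of the 468 peaks listed in both (94.7%). Widths were 300 bp for 304 of the 305, and the narrower row was the CG9663 peak at 2L:3302101-3302225. There were 296 separate loci, because 18 of the peaks overlapped another listed row of replicate 1. Of the 12 peaks with a signal under 30, 10 were such overlapping rows, for example the second row near CG42808, with a signal of 3.46.

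The strongest peak lay in an intron of rl, which encodes the ERK-type MAP kinase at the end of the Ras pathway. It was at 2R:1097782-1098081, 26.0 kb downstream of the annotated start and 1.10 Mb from the centromeric end of the arm. Its signal was 151, rank 81 in replicate 1, and no row of replicate 2's ranked list overlapped it. Of its 200 bp window, 92% was masked as repeat and 55% was G or C. The second strongest, 101 bp upstream of CG10467 at 3L:6094698-6094997, had a signal of 112 in replicate 1. In replicate 2 it had a signal of 67.7 and rank 414, yet an IDR of 0.867. The third, 157 bp upstream of Cyt-b5, a haem protein of electron transfer, had 104.8 in replicate 1 and 46.1 in replicate 2 (rank 912). So a rank within 927 by signal did not suffice for listing in replicate 2, since 5 peaks combined such a rank with an IDR over 0.5.

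Below these came peaks at genes of very different roles. An intronic peak 941 bp upstream of the nearest start of NFAT, a transcription factor gene, had a signal of 97.7 in replicate 1 and 39.1 in replicate 2 (rank 1360). The promoter peak of nrv1, a Na/K-ATPase beta subunit, had 92.2 and 39.7 (rank 1307). The promoter peak of Tmf, a Golgi protein, had 89.9 and 29.4 (rank 3603). Signals are on each library's own scale, so the ranks rather than the paired values are comparable. The promoter peaks of Phyhd1 (89.7), the tetraspanin gene Tsp42El (89.5) and pes, a scavenger receptor gene (86.1), ranked 477, 1306 and 1026 in replicate 2. Peaks in introns at CG7694 (86.6), the p21-activated kinase gene Pak3 (84.1) and ken, a BTB zinc-finger repressor gene (83.2), ranked 866, 1896 and 1829. CG8034, CG15111, CG4658 and gammaTub23C, a gamma-tubulin gene of the centrosome, completed the promoter group with signals of 75.4 to 82.1 in replicate 1. ThrRS, the threonyl-tRNA synthetase gene, was the exception among promoters: its peak had 75.1 in replicate 1 but rank 43738 in replicate 2. Of the 20 strongest peaks, 13 were at promoters, 14 ranked within 2000 in replicate 2, 2 had no row there, and all 20 were in the larger list from both libraries.

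The best rank in replicate 2 belonged to the peak 298 bp upstream of Dpp10, of the dipeptidyl peptidase family. It had a signal of 80.3 in replicate 1 and 80.9 in replicate 2, rank 297, with an IDR there of 0.0113, just past the limit. The 10 best-ranked peaks lay nearest to 9 genes and ran to rank 620. They included RYBP, a Polycomb-associated gene (rank 527), be (583), the nucleolar GTPase gene Ns2 (602) and sn, the actin-bundling fascin gene (620). The CG42808 peaks stood out among them, with a replicate 2 row of rank 331 and an IDR of 0.881. By IDR the nearest to replicate 2's limit was the peak at IleRS, the isoleucyl-tRNA synthetase gene, with 0.0102. Those at CG33668, Ids, rib (a BTB protein of tube formation) and Syx4 (a syntaxin) followed with 0.0102, 0.0103, 0.0106 and 0.0107.

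The 5 strongest peaks with no ranked row in replicate 2 lay nearest to rl, ARY, TppII, CG9663 and chn. The ARY peak was intergenic, 287 kb from the ARY start. The promoter peak of TppII, a tripeptidyl peptidase gene, had a signal of 74.3. The CG9663 peak had 72.1 and the nearest listed replicate 2 summit 262 bp away, so a neighbouring peak was listed there. Its row was the only one of the 305 narrower than 300 bp. Its lack of overlap with replicate 2 may depend on that width, which was not tested. The peak at chn, a zinc-finger repressor gene of sensory neurons, had 63.4, with such a summit 487 bp away. Across all 305, 6 had a listed replicate 2 summit within 500 bp, 16 within 1000 bp and 73 within 10000 bp. Besides CG9663 and chn, those within 1000 bp included Pak3 (449 bp), the RYBP peak of rank 527 (457 bp), NFAT (708 bp) and both CG42808 rows (747 and 546 bp). At replicate 1's own limit, the members just inside had CG33668 (signal 34.5), Myo81F (38.4) and pnt (40.4) as nearest genes. Their starts were 20.2, 279 and 12.2 kb away. The ranked arm rows nearest outside were at Cadps (40.8), pr (32.6) and Cpr65Eb (51.7), with IDRs just past 0.01.

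Promoters were the commonest site of these peaks, but less so than for the peaks both replicates listed. A promoter was the 500 bp around any annotated transcript start on either side. It held 136 of 305 summits (44.6%, Wilson interval 39.1 to 50.2%), against 266 of 468 (56.8%) for peaks listed in both and 155 of 449 (34.5%) for peaks listed in replicate 2 alone. Annotation was not used by the rule, so these shares were tested with two-sided Fisher's exact tests, adjusted by Benjamini-Hochberg over 14 tests. The difference from the peaks in both was -12.2 percentage points (95% Newcombe interval -19.3 to -5.04, adjusted exact p = 0.00500), and that from replicate 2 alone was 10.1 points (2.97 to 17.1, adjusted exact p = 0.0212). Outside the 5 Mb next to the centromeric arm ends and outside Y, the first difference was -6.40 points and no longer passed (adjusted exact p = 0.316). The second did not pass with promoters of 1000 bp (3.36 points, adjusted exact p = 0.597), with replicate 2 rows up to an IDR of 0.05 (9.28 points, adjusted exact p = 0.0642) or with all replicate 1 ranked rows at an IDR of 0.01 or less (3.08 points, adjusted exact p = 0.668). That last setting changed replicate 1's list alone and left replicate 2's thresholded list as it was. All 3 promoter shares were above the 12.1% of the 102014 ranked replicate 1 rows on the arms.

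Introns held 97 of the 305 summits (31.8%), close to the 29.9% of the peaks in both (difference 1.89 points, interval -4.68 to 8.61, adjusted exact p = 0.622, Fisher's exact test). They held 43.7% of the replicate 2 peaks, and that difference passed (-11.8 points, adjusted exact p = 0.00500), a call lost with promoters of 1000 bp (-8.08 points, adjusted exact p = 0.0728). Intergenic summits numbered 55 (18.0%), above the 11.5% of the peaks in both (adjusted exact p = 0.0413), a call lost outside the centromeric 5 Mb and Y (1.69 points) and, at 6.29 to 7.10 points, with promoters of 200 bp, starts of protein-coding genes only or 1 row per locus. Coding sequence held 10 of the 305 (3.28%) and none of 468 peaks in both, which allows up to 0.814% (adjusted exact p = 0.00117, Fisher's exact test). These 10 rows are named after their values were seen: they lay in CG15635 (2 rows), at CG10702, in CG9018, in stan, a flamingo-type cadherin gene, in w (2 overlapping rows), in sif, a Rac exchange factor gene, and in Mid1 (2 overlapping rows). All 10 windows had a GC content of 50% or more. The test counted overlapping rows separately. Among the 449 replicate 2 peaks, 2.00% lay in coding sequence, and the difference was 1.27 points (interval -1.03 to 4.09). Of all ranked replicate 1 rows on the arms, 38.0% lay in introns, 27.6% between genes and 18.7% in coding sequence. Each of these was above the share of the 305.

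**Figure D2:**
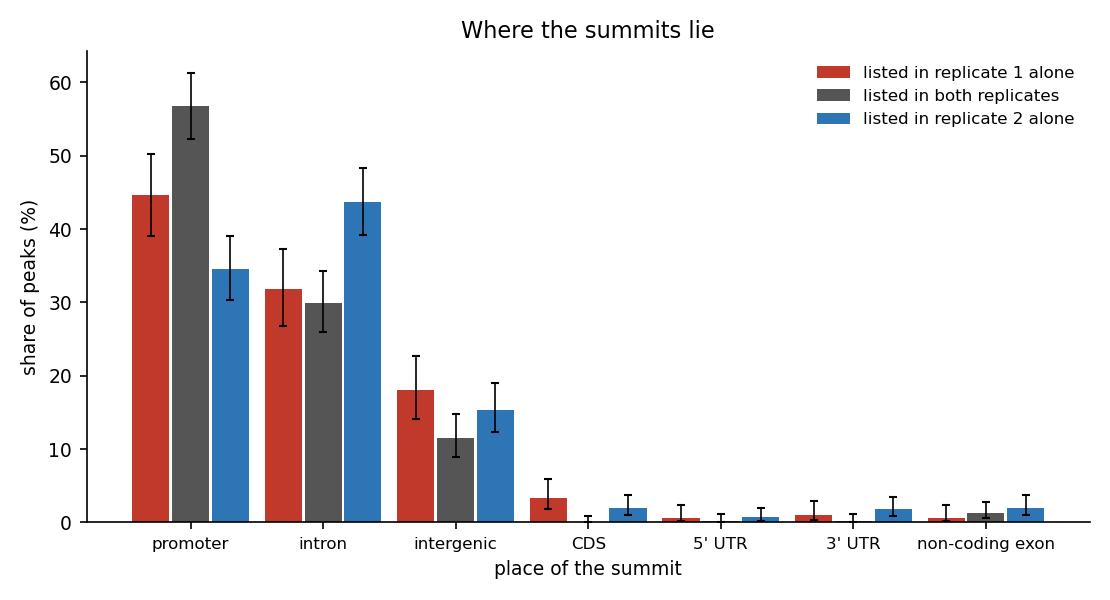
Bars give the share of peaks (%) whose summit lies in each class of annotation, for the 305 peaks listed in replicate 1 alone, the 468 listed in both and the 449 listed in replicate 2 alone, with 95% Wilson intervals. The promoter share of replicate 1 alone (44.6%) stands between 56.8% and 34.5%, and its coding share is 3.28% beside no peak in both.

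The distance to the nearest protein-coding start had a median of 1026 bp and reached 1061415 bp. It was 5000 bp or less for 218 peaks (71.5%) and over 20000 bp for 42. The 305 peaks lay nearest to 274 genes, and 22 genes had more than 1 peak.

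The X chromosome held 74 of the 305 peaks (24.3%), against 21.2% of the peaks in both and 13.4% of those in replicate 2 alone. The difference from replicate 2 alone was 10.9 points (5.25 to 16.7, adjusted exact p = 0.00207, Fisher's exact test over 14 tests), and that from the peaks in both was 3.11 points (-2.84 to 9.28, adjusted exact p = 0.581). X makes up 17.1% of the assembled arm length and held 16.2% of the ranked replicate 1 rows on the arms. The 3L share was lower than in replicate 2 alone, at 16.1% against 25.4% (adjusted exact p = 0.0153), a call that did not hold outside the centromeric 5 Mb (adjusted exact p = 0.0811). The Y chromosome held 5 of the 305 (1.64%), but no peak of either other set (adjusted exact p = 0.0372 in each case, Fisher's exact test). Y makes up 2.67% of the arm length and held 0.422% of the ranked replicate 1 rows on the arms. No peak of the 305 lay on 4.

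Peaks close to the centromeric arm ends were more numerous here than in the other sets. Within 1 Mb of the centromeric end of X, 2L, 2R, 3L or 3R lay 10 of the 305 peaks and none of the other sets. Within 2 Mb there were 23, 2 of the 468 and none of the 449, and within 5 Mb there were 50 (16.4%), 23 (4.91%) and 26 (5.79%). These distances were chosen after the values were seen and are given without a test. These 5 Mb stretches make up 18.2% of the arm length and held 14.7% of the ranked rows of replicate 1, so the 16.4% was not above the length of the region. Replicate 1 also listed 108 rows on unplaced scaffolds, outside the rule used here, and replicate 2 listed 1.

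**Figure D3:**
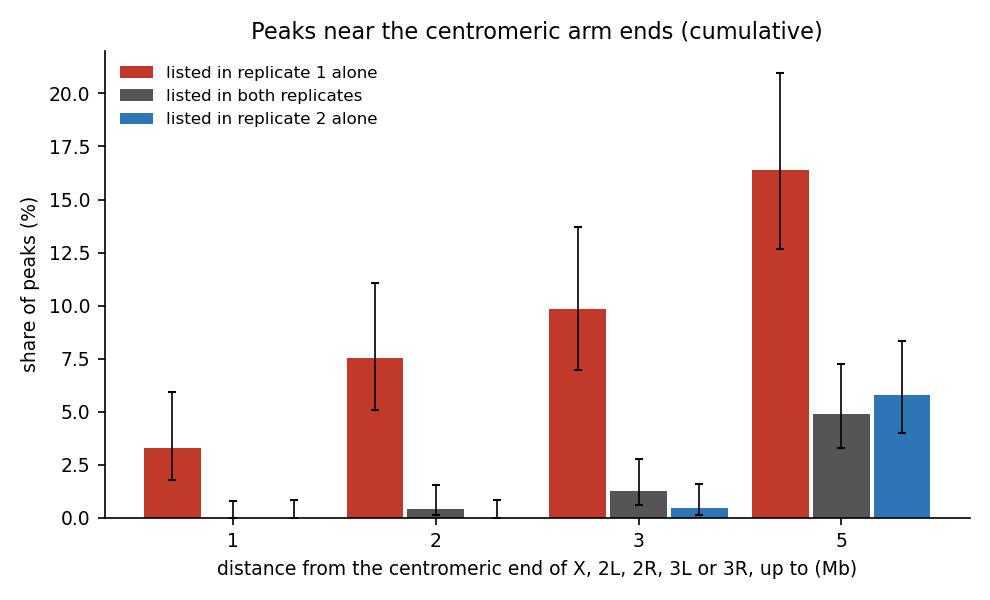
Bars give the cumulative share of peaks (%) within 1, 2, 3 and 5 Mb of the centromeric end of X, 2L, 2R, 3L or 3R, for the 3 sets, with 95% Wilson intervals. The peaks listed in replicate 1 alone stand above both other sets at each distance, at 16.4% beside 4.91% and 5.79% within 5 Mb.

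The genes with 3 or more peaks were all in such regions. Myo81F, an unconventional myosin gene that spans heterochromatin at the base of 3R, was nearest to 6 peaks between 3R:122788 and 1228260. These peaks lay 279 to 661 kb from its start. Their signals in replicate 1 were 34.5 to 50.5, and 3 of them had rows in replicate 2 that ranked 37308, 43695 and 53173. Its neighbour Pzl, of the Piezo channel family, was nearest to 3 peaks that lay within the Myo81F annotation, 763 kb or more from the Pzl start. Here 1 peak, at 3R:2202017-2202316, had a signal of 49.5 and rank 1201 in replicate 2, and the other two ranked 34975 and 37620. DIP1, a double-stranded RNA-binding protein gene near the base of X, was nearest to 5 peaks, 83.5 to 140 kb from its start. Their signals were 22.5 to 79.5, and 4 of the 5 had no ranked row in replicate 2. ARY, an aldehyde reductase gene of Y, was nearest to 3 peaks, 152 to 287 kb from its start. Their signals were 54.1, 59.3 and 85.5, and none had a ranked row in replicate 2. The remaining Y peaks, nearest to WDY and CG46193, had 42.0 and 40.2 in replicate 1 and ranked 111832 and 34553 in replicate 2. An annotated transposon covered the summit of 5 peaks, nearest to DIP1, ATbp, Marf1 (2 peaks) and CG41099, and of no peak of the other sets.

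GC-rich summits set these peaks apart from the peaks in both replicates. The 200 bp around the summit had a GC content of 50% or more at 44 of 305 (14.4%) and at 6 of 468 (1.28%), a difference of 13.1 points (9.34 to 17.6, adjusted exact p = 1.08e-12, Fisher's exact test over 4 tests). Outside the centromeric 5 Mb and Y the difference was 7.85 points (adjusted exact p = 5.64e-06). For the 449 peaks of replicate 2 alone the share was 11.6%, and the difference of 2.84 points did not pass (-1.96 to 7.96, adjusted exact p = 0.267). With the limit at 40% that difference turned to -8.19 points (adjusted exact p = 0.0298). The median GC content was 37% for the 305, 34% for the peaks in both and 39% for replicate 2 alone, so most of the 305 were AT-rich. Of all ranked replicate 1 rows on the arms, 36.4% had a GC content of 50% or more. The 44 GC-rich peaks lay in coding sequence (10), introns (13), between genes (13), at promoters (6) and in UTRs (2), and 21 of them were within 5 Mb of a centromeric end or on Y.

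**Figure D4:**
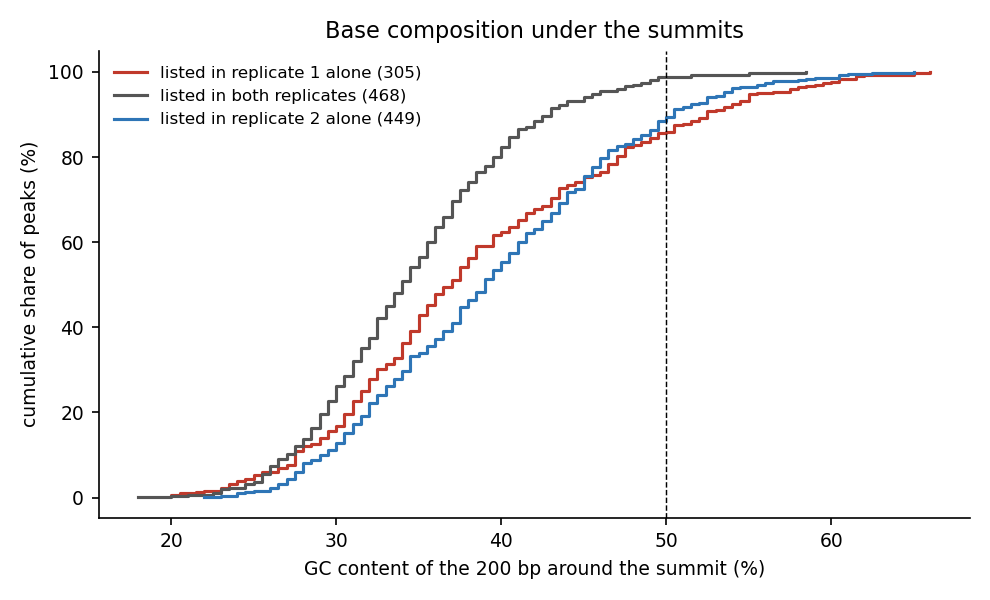
Curves give the cumulative share of peaks (%) up to each GC content of the 200 bp around the summit, for the 3 sets, with a dashed line at 50%. The curve of replicate 1 alone runs right of the curve for both replicates, with medians of 37% and 34%, and 14.4% of its peaks lie at or past the line.

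Repeat-rich summits were also more frequent, and lay largely in the same regions. Masked bases filled 50% or more of the window at 24 of 305 peaks (7.87%), 16 of 468 (3.42%) and 15 of 449 (3.34%). Both differences passed, at 4.45 and 4.53 points (adjusted exact p = 0.0103 for each, Fisher's exact test). Outside the centromeric 5 Mb and Y they were 0.404 and 0.690 points and did not pass (adjusted exact p = 0.836 for each). In 100 bp windows the first was 0.224 points (adjusted exact p = 1), and counting any masked base turned it to -3.15 points, with neither difference passing. Over all ranked replicate 1 rows on the arms, 3.59% had a window masked at 50% or more. No label or header says how reads that map to several places were treated.

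A panel of 16 words, chosen with earlier results of these data known, was sought on either strand in the 200 bp windows. The p-values do not account for that choice. TAATTA stood in 42 of 305 windows (13.8%), 87 of 468 (18.6%) and 127 of 449 (28.3%). It was in 9.68% of all ranked replicate 1 windows. The share was lower than in replicate 2 alone by -14.5 points (-20.0 to -8.65, adjusted exact p = 6.74e-05, Fisher's exact test over 32 tests). The Mantel-Haenszel odds ratio within GC bins of 5 points was 0.377 (0.251 to 0.564). The difference from the peaks in both was -4.82 points (-9.91 to 0.595, adjusted exact p = 0.331). Among promoter summits alone the difference from replicate 2 alone was -13.8 points and did not pass (adjusted exact p = 0.257). The TAATTA share was 19.1% at promoters and 9.47% elsewhere within the 305. TGATAA was also lower than in replicate 2 alone (14.4% against 23.6%, adjusted exact p = 0.0254), while ATTAAT (14.8% against 23.1%, adjusted exact p = 0.0438) and AATATT (24.3% against 34.6%, adjusted exact p = 0.0254) were lower than in the peaks in both. The last 3 calls did not hold outside the centromeric 5 Mb and Y. Over all ranked replicate 1 windows TGATAA stood in 9.12%, ATTAAT in 9.14% and AATATT in 11.4%, each below its share of the 305. ACAGTG was in 20.7%, 26.9% and 20.3% of the sets and 8.16% of all ranked windows, and neither difference passed (adjusted exact p = 0.225 and 0.989). Away from promoters ACAGTG stood in 20.1% of these peaks and 34.2% of the peaks in both, a difference of -14.0 points that passed (adjusted exact p = 0.0253).

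A scan of all words of 6 letters, counted with their reverse complements, called few. Against the peaks in both, 4 words (0.192%) passed an adjusted p of 0.05, 3 lower and 1 higher, and 222 had an unadjusted p of 0.05 or less. TTAAAA was in 38.4% against 57.1% (adjusted exact p = 0.000779), and within GC bins its Mantel-Haenszel odds ratio was 0.624 (0.449 to 0.867). Against replicate 2 alone that ratio was 0.820 (0.589 to 1.14). AAAATA (47.9% against 64.3%) and ATATTA (26.9% against 41.5%) were the other lower words, and GCTGCC (14.4% against 5.34%) was the higher one. Over all ranked replicate 1 windows, TTAAAA stood in 20.7%, AAAATA in 24.9%, ATATTA in 11.3% and GCTGCC in 18.3%. So in the 305 the 3 lower words were above their shares over all ranked windows, and GCTGCC was below its share. Outside the centromeric 5 Mb and Y no word passed in Fisher's exact test, with 122 at an unadjusted p of 0.05 or less. Against replicate 2 alone 3 words (0.144%) passed, all lower in these peaks, and 186 had an unadjusted p of 0.05 or less. CTTATC was in 25 of 305 windows (8.20%) against 101 of 449 (22.5%, adjusted exact p = 0.000215), with a Mantel-Haenszel odds ratio of 0.335 (0.208 to 0.538), and in 7.05% of all ranked windows. Against the peaks in both, its odds ratio within GC bins was 1.05 (0.612 to 1.80). The peaks in both held it in 9.02% at promoters and 7.43% elsewhere, close to the 8.09% and 8.28% of the 305. So for CTTATC the share of replicate 2 alone was the one that stood apart. TAATTA and AATTAA (32.1% against 48.1%, adjusted exact p = 0.00868) were the other words, and AATTAA was in 21.5% of all ranked windows. CTTATC shares 5 letters with TGATAA and AATTAA shares 5 with TAATTA, so these calls are not independent.

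The make-up of the 305 is given by their rank in replicate 2, in tiers chosen after the values were seen and given without a test. The tiers rest on replicate 2 values that the member rule used, and the larger list was made from both libraries together, so nothing is read from its share by tier. The 129 peaks that ranked 1 to 2000 there were at promoters in 48.8% and GC-rich in 5.43%, and 126 were in the larger list from both libraries. The 83 that ranked past 2000 up to 10000 were at promoters in 57.8%. The 56 past rank 10000 were at promoters in 32.1% and GC-rich in 26.8%, and 21 were in the larger list. The 37 with no ranked row were at promoters in 18.9% (7 peaks), GC-rich in 35.1% (13 peaks), and 20 lay within 5 Mb of a centromeric end or on Y. TAATTA stood in 18.6% of the first tier and in 1 of the 37.

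**Figure D5:**
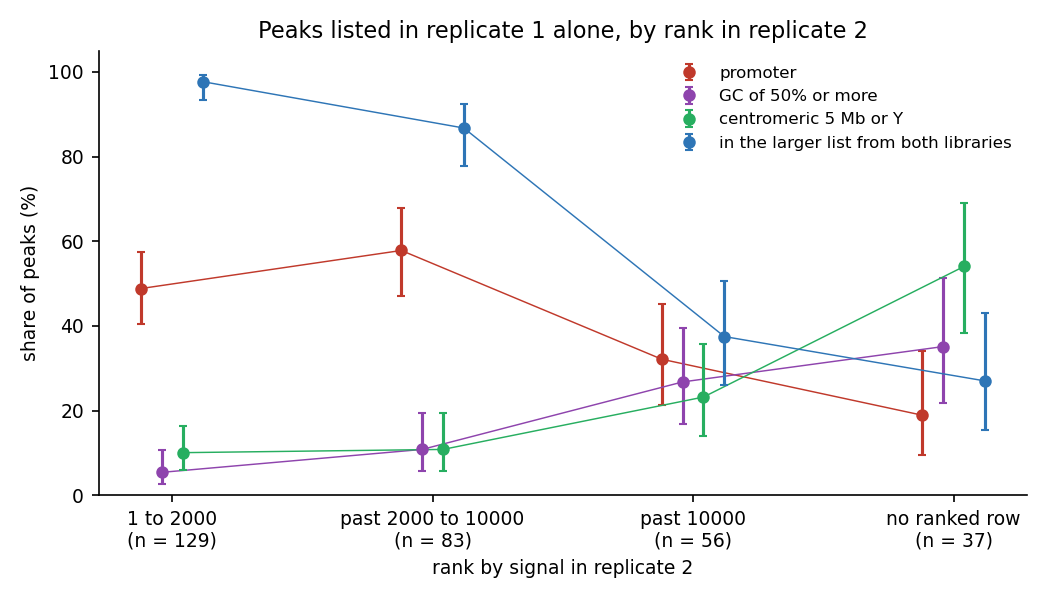
Points give the share (%) of the peaks listed in replicate 1 alone, by the rank of the overlapping row in replicate 2, that are at promoters, have a GC content of 50% or more, lie within 5 Mb of a centromeric end or on Y, or are in the larger list from both libraries, with 95% Wilson intervals. The centromeric or Y share is 54.1% where no row was ranked, and the share in the larger list is tied to replicate 2 rank by how that list was made.

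The share of listed neural genes nearest to these peaks was close to that of all genes. Of 10685 protein-coding genes nearest to a ranked replicate 1 row, 274 (2.56%) were nearest to one of the 305, as were 6 of 204 such genes in the 9 neural lists (2.94%) and 25 of 569 in all 22 lists (4.39%). From the motor neuron list of 17 genes only Lim3 itself was hit, by an intronic peak with a signal of 27.2 and rank 12497 in replicate 2. Single genes were hit in most other neural lists. They included apt, a transcription factor gene (60.3, rank 2018), mid, a T-box gene (50.2, rank 876), sei, an ERG-type potassium channel gene (50.4, rank 7618), and Ddc, dopa decarboxylase (33.5, rank 4423). The glial list was hit by pnt, an ETS activator gene (40.4, rank 53480). By nearest start no gene of the temporal and progenitor, synaptic, epidermis and trachea, heat shock, mitochondrial ribosome, proteasome or RNA polymerase II lists was hit. Counting instead any gene whose body, extended by 2 kb, held a summit gave 35 listed genes, with 3 in the RNA polymerase II list and 1 each in the temporal, mitochondrial ribosome and proteasome lists.

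The list with the highest share was that of EGFR, Raf and ERK signalling, with 6 of its 26 genes with a ranked row (23.1%). The gene lists were chosen with earlier results of these data known, so this share is a description and was not tested. The ligand gene spi had a promoter peak with a signal of 72.9 and rank 699 in replicate 2. The kinase gene Raf had an intronic peak (54.0, rank 755), and the kinase gene rl the strongest peak of all, with no ranked row. The ETS repressor gene aop (66.6, rank 976) and the ETS activator gene pnt (40.4, rank 53480) each had an intronic peak. The EGFR inhibitor gene kek1 had an intergenic peak 20.2 kb away (50.1, no ranked row). Only the spi and aop peaks lay within 5 kb of the start, so the count was 2 with that limit, and the list was then no longer the one with the highest share. The muscle and mesoderm list had 4 of 34 genes (11.8%). They were rols (54.6, rank 11998) and kirre (47.6, rank 2614), both of myoblast fusion, sls, the titin-like sarcomere gene (50.7, rank 870), and rhea, the talin gene (48.4, rank 1003). The cytoplasmic ribosomal protein list had 4 of 63 (6.35%), RpL34b (64.0), RpS15Aa (58.6), RpL41 (46.7) and RpS29 (41.7), all at promoters. The translation factor list had eIF4B, 207 kb away, and eIF5B. E(spl)m3-HLH, a Notch target (66.9), the Hox gene Antp (49.8), ush, a FOG-type zinc-finger gene (58.7), and ph-p, of the Polycomb repressive complex (38.0), were the single genes of their lists.

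The Lim3 gene and its surroundings, a locus singled out after its values were seen, held many listed peaks that were not shared. From 50 kb before to 50 kb after Lim3 (2L:19079256-19108427) lay 7 of the 305 peaks, 1 of the 468 in both and 12 of the 449 in replicate 2 alone, in a window that makes up 0.0939% of the arm length. The window held 0.100% of the ranked rows of replicate 1 and 0.153% of those of replicate 2. The 7 peaks were nearest to Acn, CG10702 (2 peaks), CG17344 (2 peaks, both in introns of Lim3), Lim3 and Ddc. Their signals in replicate 1 were 27.2 to 49.0, and their ranks in replicate 2 ran from 928 to 12497. At w, the eye-pigment transporter gene on X, 2 overlapping rows of the 305 had summits in coding sequence (41.1 and 7.61 in replicate 1, with a single replicate 2 row of rank 1409), and no peak of the other sets had a summit in the gene. No label gives the sequence content of the tagged insertion.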

How the data were processed

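Peaks came from 2 biological replicates of 1 group, each with a ranked and an IDR-thresholded list in dm6 coordinates, per the labels; 2 further pairs of lists came from both libraries. The score (0 to 1000), the signal of each peak and the −log10 of the IDR are the authors' deposited values. Other fields used were the deposited coordinates and summit offsets. Each list was called on 1 library as the deposited file names and descriptions give it, and no source used here names the aligner, the caller or the unit of the signal. The lists hold no read counts, so depth is unknown and p-values reflect counting of peaks only. Nothing says how far the embryo collections of the replicates were separate beyond the label of biological replicate.

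Members were found by overlap of 1 bp or more. Rank was counted by signal in the ranked list, and where several rows overlapped the strongest was used. Summits were annotated with Ensembl release 115 (BDGP6): promoter (within 500 bp of a transcript start), then 5′ UTR, coding sequence, 3′ UTR, non-coding exon, intron, intergenic. The nearest gene is that of the nearest protein-coding start. GC content, soft-masked bases and words were read in 200 bp windows of the RefSeq dm6 genome. Shares were compared between disjoint sets with two-sided Fisher's exact tests and Newcombe 95% intervals, adjusted by Benjamini-Hochberg within each family, in Python 3.11.15 with scipy 1.17.1, statsmodels 0.14.6, pandas 2.3.3 and numpy 2.4.6. The overlap and the word scan were checked on simulated data.

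Members, gene lists and words were chosen with earlier results of these data known. Named peaks are the 20 strongest, the 10 best ranked in replicate 2, the 5 strongest with no replicate 2 row, genes with 3 or more peaks, up to 3 genes per list by signal and the 3 on each side of the limit. The EGFR list is given whole, as are the muscle and ribosomal protein hits, beyond that rule. Of the list symbols, 34 matched no gene name and were left out. Alternatives covered overlap, distance, IDR limits, window sizes, promoter width, masked and GC limits, and summit class.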

Additional observations from a re-analysis of the deposited data

Results flagged for a closer look

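Replicate 1's thresholded list held 108 rows on unplaced scaffolds, which the member rule leaves out, while replicate 2's list held 1. These rows were called like the others and have no place on an arm, so no gene or arm position is given for them.

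On the arms, 70 rows of replicate 1's ranked list had an IDR of 0.01 or less and were still not in its thresholded list. None of the 70 overlapped a listed row of replicate 2, so each would have been a member had it been listed. Only 58 of them also overlapped no ranked replicate 2 row at an IDR of 0.01 or less. The rest met such a row, which replicate 2's thresholded list lacked as well. Of the 70, 28 were on X, 21 of them within 1 Mb of the centromeric end, and 9 were on 4. Replicate 2 had 20 such rows on the arms. No source used here names the step that left these rows out.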

How the results depend on the processing

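No paired analysis was possible because the study has 1 group. Values follow in percentage points, first against the peaks in both and then against replicate 2 alone where both are given. The cause of each change was not tested beyond the smaller sets that some settings leave.
The number of members was 50 with the stronger 50% of each list, 45 of which had a ranked row, and 773 without replicate 2, while without replicate 1 there is no value. In those stronger peaks no comparison passed: promoter -1.94 and 16.9, X 9.15 against replicate 2, GC 5.11 against both, repeats 4.14 and 2.57, TAATTA -15.5 against replicate 2, intergenic -0.979 against both, and 0 words each (82 and 78 at an unadjusted p of 0.05 or less in Fisher's exact test). With all replicate 1 ranked rows at an IDR of 0.01 or less, promoter was 3.08 (no longer passing) and GC 8.95 (now passing) against replicate 2, ACAGTG -7.72 against both (now passing), and 89 and 9 words passed. That setting changed replicate 1's list alone, which gave 375 members, and kept replicate 2's thresholded list. With replicate 2 rows at an IDR of 0.05 or less, promoter was 9.28 (no longer passing, adjusted exact p = 0.0642) and GC 6.12 (now passing) against replicate 2. Sharing by summits within 1000 bp gave 11 and 12 words.
Promoters of 1000 bp gave promoter 3.36 and intron -8.08 against replicate 2, neither passing. A GC limit of 40% gave -8.19 against replicate 2, which passed. Any masked base gave repeats of -3.15 and 5.43, neither passing. Windows of 100 bp gave repeats of 0.224 (not passing) and 14 words against both, and windows of 500 bp gave GC 6.66 (passing) and 13 words against replicate 2. Outside promoters GC was 9.22 against replicate 2 and ACAGTG -14.0 against both, both passing, and 2 and 5 words passed; at promoters TAATTA was -13.8 against replicate 2 and no longer passed (adjusted exact p = 0.257). In 2 settings chosen after seeing the data, leaving out the centromeric 5 Mb and Y gave promoter -6.40 against both, repeats 0.404 and 0.690, none passing, and 0 words against both, and 1 row per locus gave 10 words against replicate 2.
The GC difference from the peaks in both passed in every setting run except the stronger peaks. Read depth is unknown for these lists, and the IDR-ranked lists hold no region below their own call, so absence from replicate 2 cannot be told from a signal too low to be ranked.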

Other observations

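Of the 24 members whose windows were 50% or more masked, 14 lay within 5 Mb of a centromeric end or on Y. Of the 76 members outside the larger list from both libraries, 27 had no ranked row in replicate 2, 24 had a GC content of 50% or more and 26 lay within 5 Mb of a centromeric end or on Y. The 229 members inside it were at promoters in 50.2% and those outside it in 27.6%. These subsets were formed after the values were seen and are given without a test.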
